A study of Mus musculus with 12 samples.

Results

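The expression of 10 genes of MHC class I antigen presentation was followed in C2C12GFP cells, a mouse skeletal muscle myoblast line that carries green fluorescent protein. The genes, taken by name from the pathway, were *H2-K1*, *H2-D1*, *B2m*, *Tap1*, *Tap2*, *Tapbp*, *Psmb8*, *Psmb9*, *Psmb10* and *Nlrc5*, which are 10 of the 55536 genes in the count table. The cells had been differentiated on uncoated plastic (Control), on Collagen I, on fibronectin or on Geltrex™, and RNA-seq was run on 3 samples of each of these 4 groups. Collagen I and fibronectin are single matrix proteins, and Geltrex™ is a basement membrane extract that contains laminin, Collagen IV and entactin. All 12 samples share the cell line and its GFP, the day of differentiation behind the RNA-seq samples is not given in the sources used here, and no treatment other than the coating is named.

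MHC class I molecules display peptides made inside the cell to cytotoxic T cells. Proteins are cut by the proteasome, and interferon can exchange its catalytic subunits for those of the immunoproteasome. The peptides are carried into the endoplasmic reticulum by the TAP transporter, loaded onto a heavy chain with the help of tapasin, and shown at the surface together with beta-2 microglobulin. Healthy muscle fibers are known for little class I at their surface, and the pathway is known to be raised in inflamed muscle.

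The heavy chains H2-K and H2-D (*H2-K1*, chr17:33996017-34000347, and *H2-D1*, chr17:35262730-35267499) are encoded in the mouse MHC (GRCm38, GENCODE M21), as are *Tapbp*, *Tap1*, *Tap2*, *Psmb8* and *Psmb9*, which lie between chr17:33915899-33929292 (*Tapbp*) and chr17:34203527-34216321 (*Tap2*). *B2m* lies at chr2:122147686-122153083, *Psmb10* at chr8:105935735-105938444 and *Nlrc5* at chr8:94434356-94527272. C2C12 cells derive from C3H mice, whose MHC alleles differ from those of the reference strain. Reads of *H2-K1* and *H2-D1* may therefore be lost or shared with other class I genes, and the part of this in their counts was not tested.

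Promoters of 8 of the 10 genes were taken from RefSeq on GRCm38.p6, each covering 250 bases before and 50 bases after a start site. The promoters of both heavy chains and of *B2m* are printed because they carry the same kinds of motif letters, and that of *Tap1* because it is shared with *Psmb9*. Capitals mark the letters AANNGAAA (the core of interferon regulatory factor sites), the ISRE core (a longer interferon-stimulated response element of 2 GAAA copies with 2 bases between them, which contains AANNGAAA), CCAAT and the NF-kB motif, each searched on both strands.
H2-K1 (chr17:34000298-34000597, minus strand): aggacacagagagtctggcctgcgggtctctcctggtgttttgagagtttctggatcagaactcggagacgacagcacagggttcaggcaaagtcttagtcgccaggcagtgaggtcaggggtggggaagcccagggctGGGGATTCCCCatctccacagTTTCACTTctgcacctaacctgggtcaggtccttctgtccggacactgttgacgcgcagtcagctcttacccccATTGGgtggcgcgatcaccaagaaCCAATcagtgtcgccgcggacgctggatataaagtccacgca
H2-D1 (chr17:35262844-35263143, plus strand): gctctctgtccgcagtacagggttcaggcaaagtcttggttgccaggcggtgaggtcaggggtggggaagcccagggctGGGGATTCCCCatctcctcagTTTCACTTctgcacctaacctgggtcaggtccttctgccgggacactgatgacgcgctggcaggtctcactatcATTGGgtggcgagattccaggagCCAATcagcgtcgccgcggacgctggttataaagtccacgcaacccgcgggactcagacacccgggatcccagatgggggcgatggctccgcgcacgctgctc
B2m (chr2:122147437-122147736, plus strand): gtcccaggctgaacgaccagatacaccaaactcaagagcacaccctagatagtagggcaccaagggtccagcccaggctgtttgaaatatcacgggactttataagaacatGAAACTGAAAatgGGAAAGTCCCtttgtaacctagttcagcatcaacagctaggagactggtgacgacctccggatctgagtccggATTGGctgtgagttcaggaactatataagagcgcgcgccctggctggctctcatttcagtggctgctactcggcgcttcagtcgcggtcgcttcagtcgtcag
Tap1 (chr17:34187306-34187605, plus strand): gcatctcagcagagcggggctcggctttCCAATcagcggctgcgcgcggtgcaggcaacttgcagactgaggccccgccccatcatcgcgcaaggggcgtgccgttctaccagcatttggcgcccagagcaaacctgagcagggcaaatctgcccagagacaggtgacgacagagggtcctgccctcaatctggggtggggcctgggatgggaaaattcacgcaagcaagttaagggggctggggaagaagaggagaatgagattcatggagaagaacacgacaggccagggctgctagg

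*H2-K1* and *H2-D1* each held 1 match to AANNGAAA, 2 overlapping NF-kB matches and 2 CCAAT boxes, and *B2m* held 1 of each kind, including 1 match to the ISRE core. Aligned without gaps, the windows of *H2-K1* and *H2-D1* were identical at 176 of 240 bases (73.3%). The *Tap1* window shares 275 bases with that of *Psmb9*, which is read from the opposite strand, and the only letters found there were 1 CCAAT box. *Tapbp* held 2 CCAAT boxes, *Psmb8* held 1 match to TTCNNNGAA (the GAS element), and none of these letters was found in the *Psmb10* window. Among all 32851 promoter windows, 23.9% held AANNGAAA, 3.44% held the ISRE core, 8.3% held TTCNNNGAA, 8.46% held the NF-kB motif and 37.4% held CCAAT. These matches describe letters only and do not show that a factor was bound. The windows are those of the reference strain, and the MHC windows of these C3H-derived cells may differ from them.

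**Figure D1:**
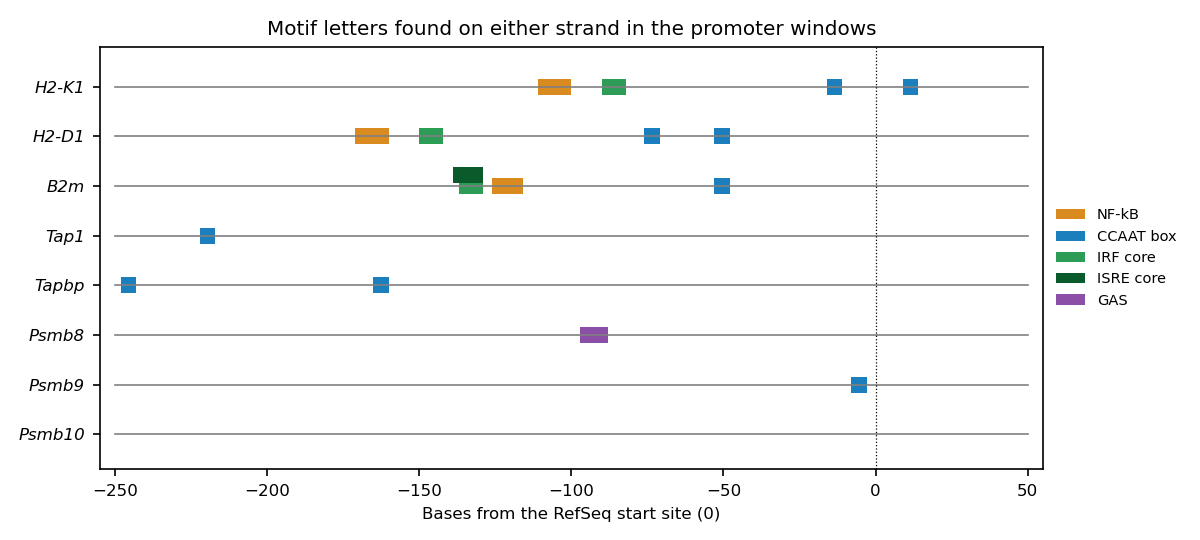
Matches to 5 motifs on either strand (coloured blocks) along the promoter windows of 8 genes, with distance in bases from the RefSeq start site on the x axis. NF-kB and IRF core letters stand near each other in *H2-K1*, *H2-D1* and *B2m*, and *Psmb10* has no match.

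Total counts lay between 22520404 and 27351766 per sample. Of the 10 genes, 9 passed the filter on low counts, among 14499 genes tested, and *Psmb9* did not. *Psmb8* passed only through the Geltrex™ samples, so a difference there was built into its passing, while the other 8 also passed without those samples. Values are given below as CPM (counts relative to the library total, scaled by TMM), the RPKM values are CPM per kilobase of exon, and a gene was called when the adjusted p of edgeR's quasi-likelihood test was at most 0.05. The labels do not say whether the 3 samples of a group were separate cultures, so the p-values measure the spread between these samples, which may be technical. The 3 Geltrex™ samples stood closer together (chi-square per gene 2.25 to 4.95) than the samples of the other groups (8.49 to 73.9). A fit with the 3 Geltrex™ samples summed into 1 is therefore given where it ended a call. In bulk RNA, more cells that express a gene and more RNA per cell cannot be told apart.

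Muscle identity was checked with 9 markers, among them *Myog*, *Myh3*, *Ckm* and *Des*, and all 9 passed the filter. Their summed level was 8770 to 9730 CPM in Control, 9430 to 9730 on Collagen I, 2920 to 3420 on fibronectin and 4250 to 4560 on Geltrex™. All 9 were called lower on Geltrex™ than in Control, where 16.6% of all genes tested were lower, and 8 were called lower on fibronectin, where 14.7% were. The part of these differences in the class I values was not tested. Of 14 immune cell markers, 11 had at most 10 counts in every sample, and 4 of these (*Adgre1*, *Itgax*, *Nkg7* and *Tyrobp*) were at 0. *Ptprc*, the pan-leukocyte marker, had at most 1 count. The summed level was 9.9 to 13.5 CPM in Control, 10.9 to 14 on Collagen I, 7.54 to 9.13 on fibronectin and 8.57 to 9.61 on Geltrex™. Most of it was *Cd14*, with a mean of 10.1 CPM in Control and 7.37 on Geltrex™. *Cd14*, 1 of 2 immune markers tested, was lower on Geltrex™ than in Control (log2 fold change -0.45, edgeR adjusted p = 0.025). That call was lost without Control replicate 1 or 3 or Geltrex™ replicate 2 or 3 (adjusted p 0.0592 to 0.107) and with the Geltrex™ samples summed (adjusted p = 0.2). The other marker tested, *Cd68*, went the other way (0.38, adjusted p = 0.346) and was not called. The 3 endothelial markers also had at most 10 counts in every sample.

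On the scale of level per length, *B2m* was far above the other genes in every group, at 448 ± 93.8 RPKM (SD, n = 3) in Control and 632 ± 17 on Geltrex™. It was followed in Control by *Tapbp* (21.4 ± 1.61), *H2-D1* (16.7 ± 2.13), *H2-K1* (4.05 ± 0.192), *Psmb10* (3.48 ± 0.302), *Tap2* (1.2 ± 0.248), *Nlrc5* (0.236 ± 0.027) and *Tap1* (0.08 ± 0.013). *Psmb8* and *Psmb9* stood last, at 0.0204 ± 0.0264 and 0 RPKM. On fibronectin, *H2-D1* (15.9 ± 3.53) and *Tapbp* (15.8 ± 2.1) did not differ beyond their spread, and neither did *H2-K1* (3.01 ± 0.523) and *Psmb10* (2.59 ± 0.501). On Geltrex™, *H2-D1* (28 ± 1.22) stood above *Tapbp* (24 ± 0.352).

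Both heavy chain genes were higher on Geltrex™ than in each other group, and *B2m* was higher than in Control and on Collagen I. *H2-K1* stood at 12.4, 12 and 11.3 CPM in the Control samples, at 10.6, 9.1 and 12.9 on Collagen I, at 10.4, 7.33 and 8.82 on fibronectin, and at 21.4, 20.6 and 20.7 on Geltrex™. Every Geltrex™ sample was above every other sample. The log2 fold change of *H2-K1* on Geltrex™ was 0.81 ± 0.133 (SE) against Control (edgeR, adjusted p = 0.000211), 0.95 against Collagen I (adjusted p = 5.52e-05) and 1.24 against fibronectin (adjusted p = 9.93e-06). These calls of *H2-K1* were kept under each of 21 alternative fits.

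The second heavy chain, *H2-D1*, was expressed at 48.3, 43.3 and 37.3 CPM in Control, 53.8, 47.2 and 58.7 on Collagen I, 42.4, 31.4 and 49.4 on fibronectin, and 71.7, 75.5 and 69.2 on Geltrex™. Here too the Geltrex™ samples were above the other 9. The log2 fold change was 0.75 ± 0.136 against Control (edgeR, adjusted p = 0.000528), 0.44 against Collagen I (adjusted p = 0.0188) and 0.81 against fibronectin (adjusted p = 0.00056). The call against Collagen I was lost without Collagen I replicate 2 (adjusted p = 0.0665), without Geltrex™ replicate 2 (adjusted p = 0.0612), and with the Geltrex™ samples summed (adjusted p = 0.157).

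*B2m*, the light chain that every class I heavy chain needs to reach the surface, had 334, 343 and 478 CPM in Control, 357, 348 and 306 on Collagen I, 369, 493 and 390 on fibronectin, and 531, 560 and 541 on Geltrex™. The groups did not overlap with Geltrex™, but Control replicate 3 and fibronectin replicate 2 stood above their groups. On Geltrex™ the log2 fold change was 0.50 ± 0.131 against Control (edgeR, adjusted p = 0.00806), 0.69 against Collagen I (adjusted p = 0.00072) and 0.38 against fibronectin, which was not called (adjusted p = 0.0509). With the Geltrex™ samples summed, the call against Control was lost (adjusted p = 0.118).

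Those 2 samples also had the lowest count-weighted transcript GC, 47.5% and 47.21%, against 47.74% to 48.1% in the other 10 libraries. This GC is computed from the same counts. It was 47.21% to 47.75% on fibronectin and 47.82% to 47.95% on Collagen I and Geltrex™, so a fit with it may also take away part of a difference between coatings. *B2m* has the lowest GC of the 10 genes (41.2%, against 52.5% to 57.1%), and *H2-K1* and *H2-D1* were at their group's lowest level in the same 2 libraries. With library GC as a covariate, the log2 fold change of *B2m* on Geltrex™ was 0.56 against Control (adjusted p = 9.94e-05) and 0.65 against fibronectin (adjusted p = 0.000451), which was then called. Without the 2 libraries these values were 0.68 and 0.52. *B2m* against fibronectin was also called when Control replicate 1 or 3, Collagen I replicate 3 or fibronectin replicate 2 alone was left out (adjusted p 0.0164 to 0.0384), with DESeq2 (adjusted p = 0.0333), and in 11 of 21 alternative fits in all.

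Per length, *B2m* exceeded the sum of *H2-K1* and *H2-D1* by 22.1 ± 7.21 times (SD, n = 3) in Control, 16.3 ± 2.95 times on Collagen I, 27 ± 10.5 times on fibronectin and 18 ± 0.487 times on Geltrex™. The range of this ratio on Geltrex™ (17.6 to 18.6) overlapped those in Control (16.9 to 30.4) and on Collagen I (13.1 to 18.9), and the range on fibronectin (20.4 to 39.1) lay above those on Geltrex™ and Collagen I. This ratio was not tested. Its size depends on the exon lengths used. All exons of *H2-K1* hold 2938 bases and its longest transcript 1874, and for *H2-D1* these lengths were 2579 and 2102.

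**Figure D2:**
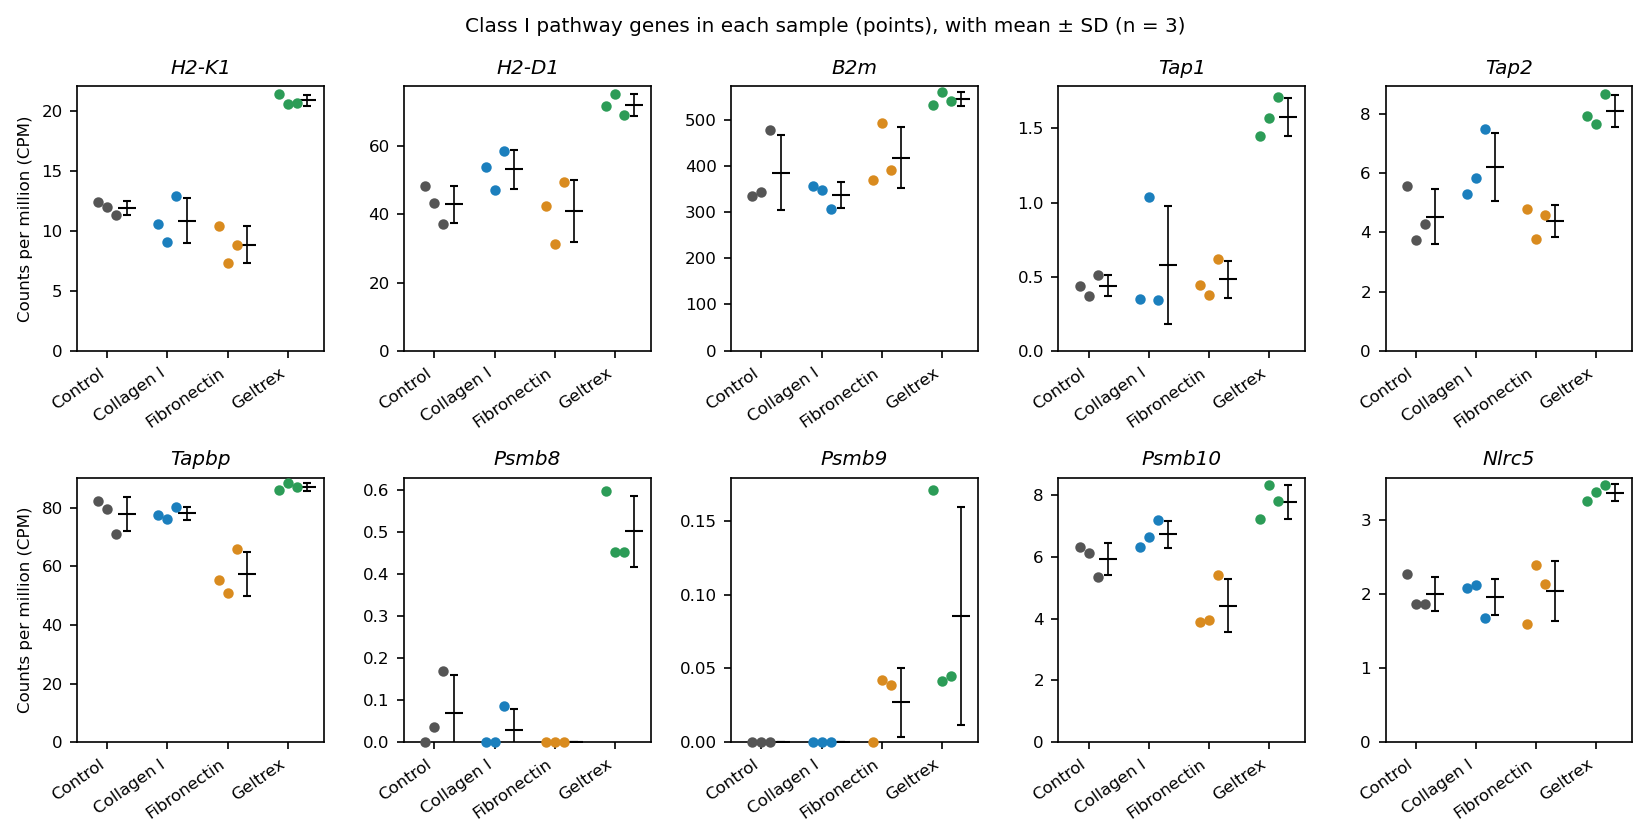
CPM of the 10 genes in each sample (points) on axes from 0, with the mean and SD of 3 samples beside them (black). For *H2-K1*, *H2-D1*, *B2m*, *Tap1*, *Tap2*, *Tapbp*, *Psmb8*, *Psmb10* and *Nlrc5* the 3 Geltrex™ samples lie above the other 9, and *Psmb9* has at most 4 counts in any sample. The share of all genes with this order was not counted, so the order is not read as particular to these genes. The gap to the nearest Collagen I sample was small for *Psmb10* (7.22 against 7.2 CPM) and *Tap2* (7.66 against 7.5). *Psmb8* passed the filter only through the Geltrex™ samples. The order does not mean a call, and *Tapbp* was not called against Control or Collagen I.

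The peptide transporter is made of TAP1 and TAP2. *Tap1* had 0.437, 0.367 and 0.51 CPM in Control, 0.347, 1.04 and 0.345 on Collagen I, 0.446, 0.377 and 0.621 on fibronectin, and 1.45, 1.57 and 1.71 on Geltrex™. Its counts were few, 8 to 28 per sample outside Geltrex™ and 34 to 38 on it, and Collagen I replicate 2 stood apart within its group. The log2 fold change on Geltrex™ was 1.84 ± 0.39 against Control (edgeR, adjusted p = 0.00176), 1.41 against Collagen I (adjusted p = 0.00812) and 1.70 against fibronectin (adjusted p = 0.00546). Against Collagen I it was 2.18 without Collagen I replicate 2. The exons of *Tap1* and *Psmb9* share 212 bases on opposite strands, which is 3.87% of the *Tap1* exon length, and *Psmb9* had at most 4 counts in any sample.

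*Tap2* was expressed at 5.57, 3.74 and 4.29 CPM in Control, 5.29, 5.83 and 7.5 on Collagen I, 4.79, 3.77 and 4.58 on fibronectin, and 7.94, 7.66 and 8.7 on Geltrex™. Geltrex™ was above the rest in all 3 samples, with Collagen I replicate 3 the nearest. It rose by a log2 fold change of 0.84 ± 0.17 against Control (edgeR, adjusted p = 0.00128) and 0.88 against fibronectin (adjusted p = 0.00172). Against Collagen I the value was 0.38 (adjusted p = 0.0821), and without Collagen I replicate 3 it was 0.54 and called (adjusted p = 0.0245).

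*Tapbp* encodes tapasin, which bridges the transporter and the heavy chain. Its levels were 82.4, 79.6 and 71.2 CPM in Control, 77.6, 76.2 and 80.4 on Collagen I, 55.3, 51 and 65.8 on fibronectin, and 85.9, 88.4 and 87.1 on Geltrex™. Fibronectin was below the rest in all 3 samples. Its log2 fold change on fibronectin was -0.44 ± 0.0908 against Control (edgeR, adjusted p = 0.00184) and -0.44 against Collagen I (adjusted p = 0.00114), and *Tapbp* on Geltrex™ stood 0.60 above fibronectin (adjusted p = 0.000214). Although the Geltrex™ samples were the highest, the differences from Control (0.16, adjusted p = 0.18) and from Collagen I (0.16, adjusted p = 0.182) were not called. The call against Control on fibronectin was kept in each of 21 alternative fits. *Tapbp* shares 149 exon bases (4.11%) with *Zbtb22* on the same strand.

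Of the immunoproteasome subunits, *Psmb8* and *Psmb9* were at or near 0 outside Geltrex™. *Psmb8* had 0, 1 and 4 counts in Control, 0, 0 and 2 on Collagen I, 0 in each fibronectin sample, and 14, 11 and 10 on Geltrex™. Summed over each group and set against library totals, this was a ratio of 7.47 to Control (exact 95% interval 2.91 to 24.4) and 17.9 to Collagen I (4.6 to 154). These intervals cover counting error only. With 3 counts over the group taken as the floor of fibronectin, the ratio to it was 12.8. That value takes the Geltrex™ counts as exact and has no interval. *Psmb8* was tested only because it was high on Geltrex™, so its p-values are not given as support. The fitted log2 fold change against Control was 2.83, and 4.39 without Control replicate 3. Against Collagen I it was 3.96, and 6.65 without Collagen I replicate 3. With the Geltrex™ samples summed, *Psmb8* was no longer called against Control.

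*Psmb9* had 0 counts in all Control and Collagen I samples, 0, 1 and 1 on fibronectin, and 4, 1 and 1 on Geltrex™. Against the same floor, these 6 counts on Geltrex™ gave a ratio of 2.13 to Control and 2.05 to Collagen I. Those values take the 6 counts as exact and have no interval, and 4 of the counts were in Geltrex™ replicate 1. The ratio to fibronectin was 3.3 with an interval from 0.591 to 33.5. No test was run for *Psmb9*.

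*Psmb10*, the third catalytic subunit of the immunoproteasome, was present in every group. It stood at 6.32, 6.13 and 5.35 CPM in Control, 6.33, 6.65 and 7.2 on Collagen I, 3.9, 3.94 and 5.4 on fibronectin, and 7.22, 8.32 and 7.8 on Geltrex™. *Psmb10* was higher on Geltrex™ than on fibronectin by 0.82 on the log2 scale (edgeR, adjusted p = 0.000971), and the differences were 0.39 ± 0.143 against Control (adjusted p = 0.0474) and 0.21 against Collagen I (adjusted p = 0.261). The call against Control was lost without any 1 of the Control or Geltrex™ samples or Collagen I replicate 1 or 2 (adjusted p 0.0504 to 0.15), as well as with the Geltrex™ samples summed (adjusted p = 0.234), and it was kept in 8 of 21 alternative fits.

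Each immunoproteasome subunit replaces a constitutive one, *Psmb8* in place of *Psmb5*, *Psmb9* in place of *Psmb6* and *Psmb10* in place of *Psmb7*. Per length, *Psmb8* reached 0.358% ± 0.0563 (SD, n = 3) of *Psmb5* on Geltrex™ and 0.0542% ± 0.0743 in Control, and *Psmb9* reached 0.0627% ± 0.0522 of *Psmb6* on Geltrex™. *Psmb10* was at 14.9%, 16.9% and 20.6% of *Psmb7* in Control, 17.1%, 20.1% and 20% on Collagen I, 13%, 17.8% and 17.6% on fibronectin, and 23.2%, 26.8% and 26.2% on Geltrex™. For this pair the Geltrex™ samples were above all others. The percentages depend on the exon lengths used, which scale all samples of a pair alike. All exons of *Psmb8* together hold 3381 bases and its longest transcript 1907, and for *Psmb10* these lengths were 1705 and 1311. Without length, the means on Geltrex™ were 0.501 CPM for *Psmb8* beside 37.2 for *Psmb5*, and 7.78 for *Psmb10* beside 61.5 for *Psmb7*. The log2 ratio of *Psmb10* to *Psmb7* differed by 0.55 between Geltrex™ and Control, by 0.41 from Collagen I and by 0.67 from fibronectin, each with a two-sided exact permutation p of 0.1, the smallest that 3 against 3 samples can give (adjusted p = 0.2 over 6 comparisons).

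**Figure D3:**
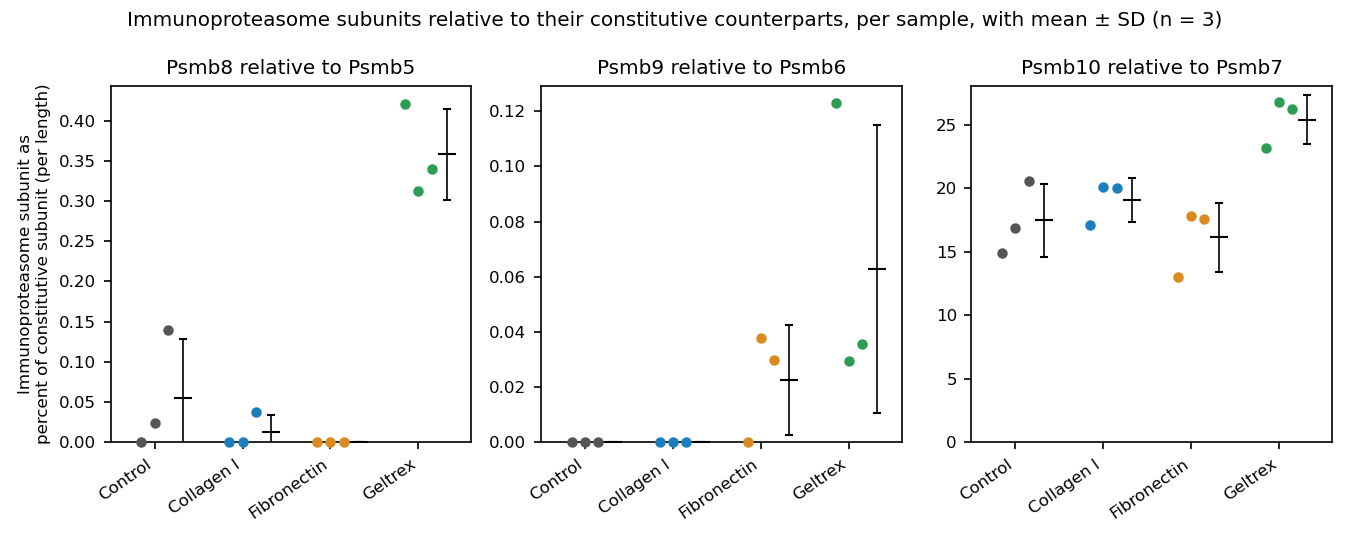
Level of each immunoproteasome subunit as a percentage of its constitutive counterpart, per exon length, in each sample (points) with the mean and SD of 3 samples (black). *Psmb8* and *Psmb9* reach at most 0.421% of their counterparts, while *Psmb10* lies between 13% and 26.8% of *Psmb7*.

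*Nlrc5* encodes a transactivator of the class I genes. It had 2.27, 1.87 and 1.87 CPM in Control, 2.08, 2.12 and 1.68 on Collagen I, 1.6, 2.39 and 2.14 on fibronectin, and 3.25, 3.38 and 3.47 on Geltrex™. The Control, Collagen I and fibronectin samples overlapped each other and lay below all Geltrex™ samples. The log2 fold change on Geltrex™ was 0.75 ± 0.192 against Control (edgeR, adjusted p = 0.00712), 0.78 against Collagen I (adjusted p = 0.00546) and 0.73 against fibronectin (adjusted p = 0.0147). The call against fibronectin was lost without fibronectin replicate 1 (0.58, adjusted p = 0.0761) and without Geltrex™ replicate 3 (adjusted p = 0.0522). With the Geltrex™ samples summed, all 3 calls of *Nlrc5* were lost (adjusted p 0.068 to 0.171), and so were those of *Tap1* against Collagen I (adjusted p = 0.0794) and fibronectin (adjusted p = 0.0814).

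Counted over the genes, 8 of 10 were called higher on Geltrex™ than in Control and 0 lower, one of them *Psmb8*, where 16.4% of all genes tested were called higher and 16.6% lower. At 2-fold or more, 2 were called (*Tap1* and *Psmb8*), against 9.14% of all genes in either direction. Against Collagen I, 6 were higher and 0 lower (19.0% and 18.2% of all genes), with 2 at 2-fold or more (9.32% of all genes). Against fibronectin, 8 were higher and 0 lower (9.06% and 10.3% of all genes), with 3 at 2-fold or more (3.98%). *Psmb8* is in each of these counts and had to be high on Geltrex™ to be tested. Among the 8 genes that passed the filter without the Geltrex™ samples, 7 were called higher against Control, 5 against Collagen I and 7 against fibronectin, with 1, 1 and 2 at 2-fold or more. The 3 comparisons share the Geltrex™ samples. The median log2 fold change of these 8 genes against Control was 0.75, beside -0.0116 over all genes tested.

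**Figure D4:**
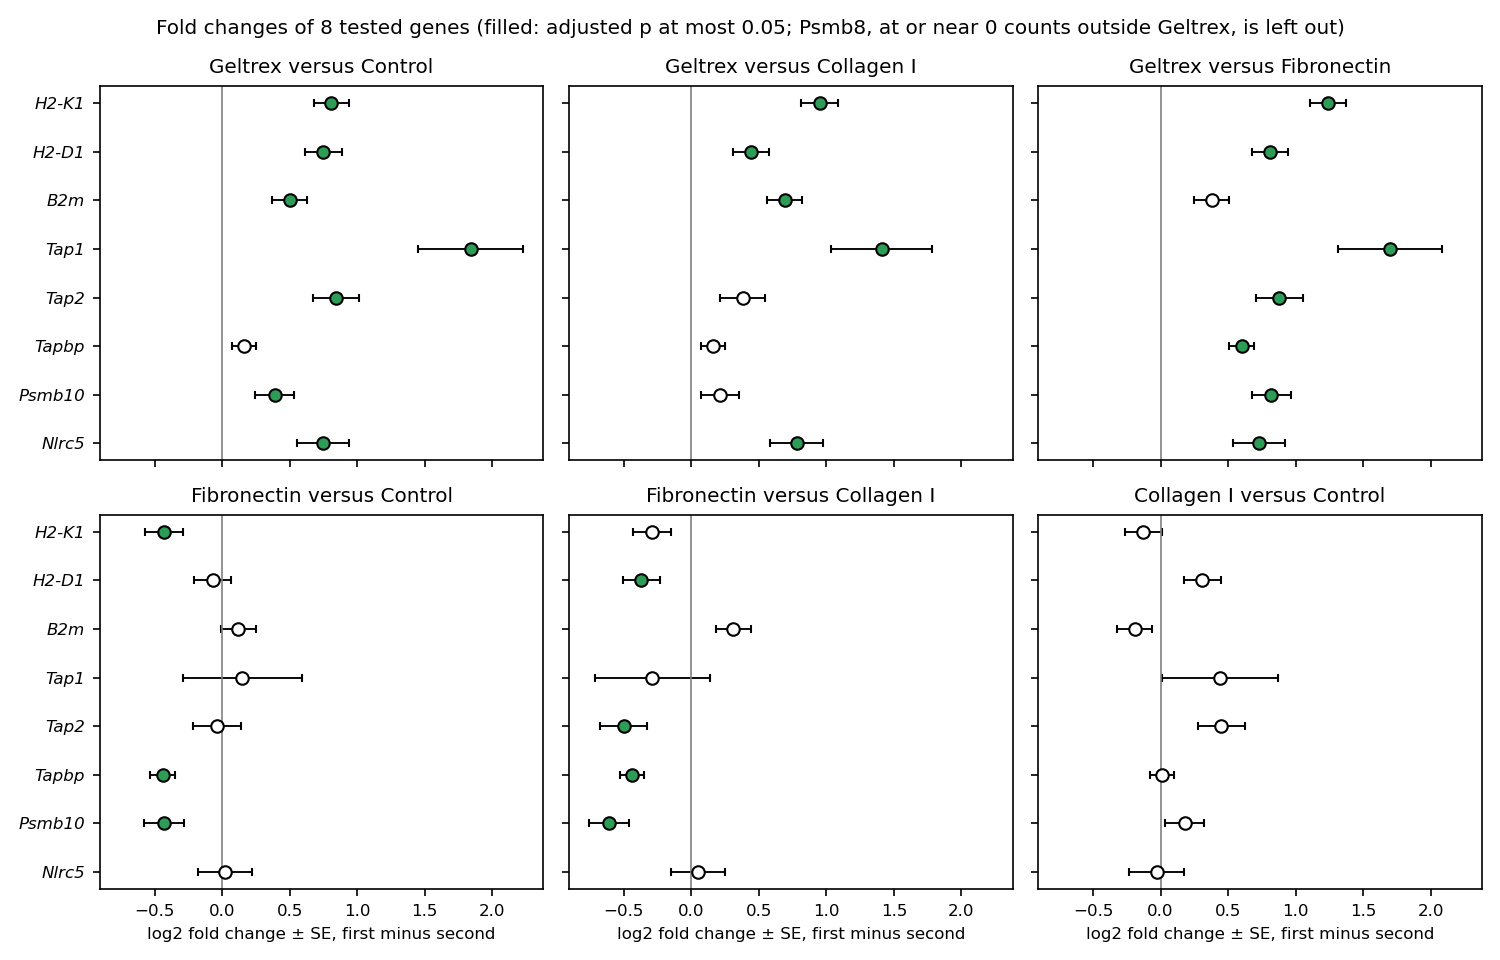
Log2 fold changes with their SE for 8 tested genes in the 6 comparisons (x axis, first group minus second), filled where the adjusted p is at most 0.05. The Geltrex™ panels hold positive values for all 8 genes, from 0.16 to 1.84, and no gene is filled in Collagen I versus Control.

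Some of the genes were lower on fibronectin. Against Control, *Tapbp*, *H2-K1* (log2 fold change -0.43, edgeR adjusted p = 0.0284) and *Psmb10* (-0.43, adjusted p = 0.0382) were called lower and 0 higher, where 14.7% of all genes were called lower and 17.1% higher. None reached 2-fold, against 6.66% of all genes. *H2-K1* lost its call without Control replicate 1 or 2 or fibronectin replicate 2 or 3 (adjusted p 0.0569 to 0.127), and *Psmb10* without Control replicate 1 or 2, fibronectin replicate 1 or 2 or any Geltrex™ replicate (0.0516 to 0.154). With library GC as a covariate, or without the 2 libraries of lowest GC, *Tapbp* alone of the 3 was called. The same held with the Geltrex™ samples summed (adjusted p = 0.0657 for *H2-K1* and 0.0757 for *Psmb10*). Library GC was low on fibronectin, so in the fit with it an effect of GC and an effect of the coating cannot be told apart.

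Against Collagen I, fibronectin had 4 of the genes lower and 0 higher, where 22.1% of all genes were called lower and 22.9% higher. They were *Psmb10* (-0.61, edgeR adjusted p = 0.00379), *Tap2* (-0.50, adjusted p = 0.0282), *Tapbp* and *H2-D1* (-0.37, adjusted p = 0.0359), with 0 at 2-fold or more against 8.46% of all genes. *H2-D1* lost its call without Collagen I replicate 1 or 3 or fibronectin replicate 1 or 2 (adjusted p 0.0658 to 0.177, and -0.21 without fibronectin replicate 2), and *Tap2* without Collagen I replicate 3 or fibronectin replicate 2 (0.11 to 0.135). *H2-K1* was called without Collagen I replicate 2 or fibronectin replicate 1 (0.0318 and 0.0368). *B2m*, at 0.31 (adjusted p = 0.0653), was called higher without Control replicate 3 or fibronectin replicate 1 (0.023 and 0.0453) and with DESeq2 (0.0466). With library GC as a covariate, *H2-D1* was at -0.16 (adjusted p = 0.229) and *Tap2* at -0.40 (adjusted p = 0.116). With the Geltrex™ samples summed, *H2-D1* (adjusted p = 0.0728) and *Tap2* (adjusted p = 0.0548) were not called.

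Collagen I differed little from Control. By edgeR, 0 of the genes were called in either direction, where 0.200% of all genes were called higher, 0.917% lower, and 0.131% in either direction at 2-fold or more. By DESeq2 the count was also 0. At an unadjusted p under 0.05 there were 2, *Tap2* (0.45, adjusted p = 0.23) and *H2-D1* (0.31, adjusted p = 0.308), and the samples of both overlapped with Control.

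Related genes of the pathway were read from lists. Among 16 nonclassical class I genes, 9 were tested, 4 were higher and 0 lower on Geltrex™ than in Control (16.4% and 16.6% of all genes), and the median log2 fold change was 0.377. *H2-Q4* stood at 3.26, 4.04 and 3.14 CPM in Control and 9.95, 10.3 and 10.8 on Geltrex™ (log2 fold change 1.56 ± 0.147, edgeR adjusted p = 8.59e-07), *H2-T10* changed by 1.24 (adjusted p = 0.0128) and *H2-T22* by 0.45 (adjusted p = 0.00587). *H2-Q1* changed by 0.79 (adjusted p = 0.0475) with overlapping samples, and by 0.49 without Control replicate 3 (adjusted p = 0.171). Its call was also lost without Control replicate 1, Collagen I replicate 1 or 2 or Geltrex™ replicate 1 or 2, and that of *H2-T10* without Geltrex™ replicate 3 (adjusted p = 0.0547). These genes are near-identical in stretches, and reads may be split between them and the heavy chains.

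Of 6 genes for peptide trimming and loading, 2 were higher and 0 lower (16.4% and 16.6% of all genes). *Erap1*, the aminopeptidase that trims peptides to length in the endoplasmic reticulum, had 25.1, 30 and 28 CPM in Control and 44, 43.2 and 46.3 on Geltrex™ (log2 fold change 0.68 ± 0.104, edgeR adjusted p = 0.000105). *Uggt1*, which checks the folding of glycoproteins, changed by 0.34 (adjusted p = 0.0207), a call lost without Control replicate 1 or Geltrex™ replicate 2 or 3 (adjusted p 0.0592 to 0.1). The list's median was 0.126.

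Of 5 proteasome activator and assembly genes 1 was higher, a share near the 16.4% of all genes. It was *Psme2*, a subunit of the interferon-inducible PA28 activator (log2 fold change 0.38, edgeR adjusted p = 0.0303). Its call was lost without any 1 Control sample or Geltrex™ replicate 1 or 2 (adjusted p 0.0501 to 0.0984). Its partner *Psme1* was at 0.16 (adjusted p = 0.306), and the median was 0.0204. Of the 14 constitutive subunits of the 20S proteasome, 0 were higher and 4 lower (16.4% and 16.6% of all genes), with a median of -0.16, namely *Psma1*, *Psma4*, *Psma5* and *Psmb6*, the last at -0.29 (adjusted p = 0.0476). *Psmb5* (-0.16, adjusted p = 0.519) and *Psmb7* (-0.19, adjusted p = 0.362) were not called, although *Psmb7* was called without Control replicate 3 (-0.36, adjusted p = 0.0432). Each of the 4 lower calls was lost when some single library was left out. For *Psmb6* these were any 1 Control or Geltrex™ sample, Collagen I replicate 1 or fibronectin replicate 1 (adjusted p 0.0543 to 0.173), and *Psma4* moved from -0.25 to -0.16 without Control replicate 3 (adjusted p = 0.185).

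**Figure D5:**
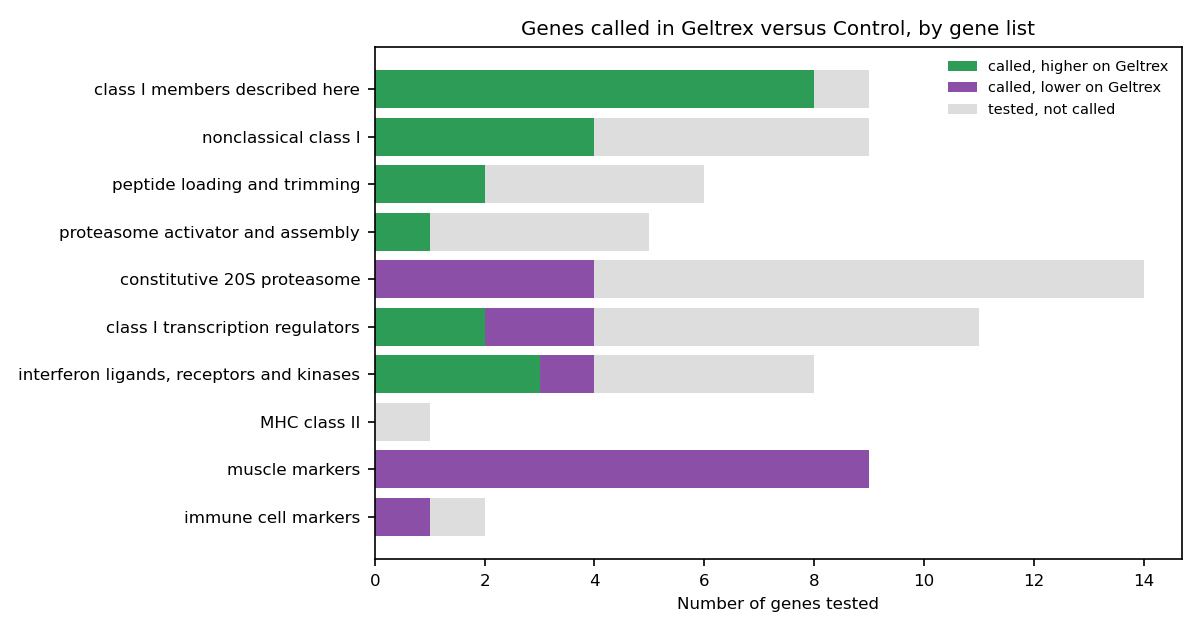
Number of genes tested in each list (x axis) and how many were called higher (green) or lower (purple) on Geltrex™ than in Control. The 10 genes described here, of which 9 were tested, have 8 higher, *Psmb8* among them, and 0 lower, beside 16.4% and 16.6% of all genes. The calls among constitutive proteasome genes (4 of 14), muscle markers (9 of 9) and immune markers (1 of 2) are all lower.

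Of 13 transcription factors of the class I genes, 11 were tested, and 2 were higher and 2 lower on Geltrex™ than in Control, shares near those of all genes (16.4% and 16.6%), with a median log2 fold change of 0.0762. *Irf1*, an interferon-inducible activator of class I genes, was at 33.9, 33.6 and 29.5 CPM in Control and at 23.4, 23.4 and 21.2 on Geltrex™ (log2 fold change -0.51, edgeR adjusted p = 0.000448). *Nfkb1*, a subunit of NF-kB, changed by 0.32 (adjusted p = 0.00413), and *Rela*, its usual partner, by 0.23 (adjusted p = 0.0318, named after its value was seen). The call of *Rela* was lost without any 1 Control or Geltrex™ sample (adjusted p 0.0559 to 0.0909). *Irf2*, a repressor of interferon responses, changed by -0.31 (adjusted p = 0.0247), a call lost without Control replicate 1 or 3 or any Geltrex™ sample (adjusted p 0.0518 to 0.118).

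Interferon transcripts themselves were scarce. A list of 19 genes held interferon ligands, receptors and kinases, and also *Tnf* and *Socs1*. In it, 10 genes, *Tnf* among them, never exceeded 10 counts, and 6 of the 10, all of them interferons, were at 0 throughout. *Ifng* had 0, 1 and 3 counts in Control, 8, 3 and 7 on Collagen I, 0, 1 and 6 on fibronectin, and 8, 5 and 11 on Geltrex™. It did not pass the filter and was not tested. The highest count of *Ifnb1* was 1. Of the 8 tested, 3 were higher and 1 lower on Geltrex™ than in Control (16.4% and 16.6% of all genes), with a median of 0.142. *Jak2*, a kinase of the interferon-gamma receptor, was at 46.8, 56.3 and 57.1 CPM in Control and 89.5, 84.6 and 90.8 on Geltrex™ (log2 fold change 0.73, edgeR adjusted p = 5.5e-05), and *Ifngr2*, a chain of that receptor, was at -0.51 (adjusted p = 8.52e-05). *Jak1* (0.30, adjusted p = 0.039) and *Ifnar1* (0.22, adjusted p = 0.0374) lost their calls without Control replicate 1 (*Jak1* 0.19, adjusted p = 0.176, and *Ifnar1* 0.17, adjusted p = 0.152) and without any 1 Geltrex™ sample. *Jak1* also lost it without Collagen I replicate 1, and *Ifnar1* without Control replicate 3. On fibronectin, *Ifnar1*, *Jak1* and *Jak2* were also called higher than in Control, where 17.1% of all genes were. With the Geltrex™ samples summed into 1, the Geltrex™ calls against Control of *H2-Q4*, *Erap1*, *Irf1*, *Jak2* and *Ifngr2* were kept, and those of *H2-Q1*, *H2-T10*, *H2-T22*, *Uggt1*, *Psme2*, *Irf2*, *Nfkb1*, *Rela*, *Ifnar1*, *Jak1* and the 4 constitutive subunits were lost (adjusted p 0.0889 to 0.387).

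Transcripts of the class II pathway, which presents peptides from outside the cell, summed to 1.63 to 2.88 CPM. Of 8 genes, 5 were at 0 in every sample and 1 was tested, *H2-DMa*, whose log2 fold change on Geltrex™ was 0.24 against Control (edgeR, adjusted p = 0.472). *Ciita*, the class II counterpart of *Nlrc5*, had at most 5 counts in any sample.

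Among the genes whose log2 CPM was most like the mean z-score of the 9 tested genes over the 12 samples were *Cited2* (Pearson's r = 0.989), *Xaf1* (0.987), *Amotl2* (0.985), *Cxcl5* (0.984), *Ccn1* (0.981), *Ccl2* (0.981), *Bst2* (0.98), *Tnfaip3* (0.978) and *Trib1* (0.976), out of 12313 genes compared. All share the step between Geltrex™ and the other groups, and the 12 points are 4 groups of 3 samples, so these values describe the pattern only. *Psmb8*, tested only through the Geltrex™ samples, is among the 9 genes and brings that step into the mean. *Bst2*, an interferon-inducible membrane protein, had a mean log2 CPM of 0.20 in Control and 3.12 on Geltrex™. *Ccl2*, a chemokine for monocytes, had 3.81 and 6.69, and *Cxcl5*, a chemokine for neutrophils, 6.27 and 8.98.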

How the data were processed

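RNA-seq was measured in 12 samples of C2C12GFP cells, 3 per coating. Per the labels, the authors used FastQC, Trimmomatic, HISAT2, featureCounts and DESeq2, and the table used here holds their deposited, unnormalized read counts for 55536 genes. The genome build, the strand rule and the treatment of reads with several matches are not given in the sources used here. All 55536 identifiers were found in GENCODE M21 (GRCm38), which gave names, positions and exon lengths.

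Counts were fitted with edgeR 4.0.16 (R 4.3.3) by 1 quasi-likelihood model over the 4 groups with 8 residual degrees of freedom, after filterByExpr (min.count 10, min.total.count 15) and TMM scaling. Adjusted p-values are Benjamini-Hochberg values over the 14499 genes tested, and a call is an adjusted p of at most 0.05. The SE is the size of the log2 fold change divided by the root of the F statistic. For the ratios of immunoproteasome to constitutive subunits, an exact permutation test on log2 ratios was used for *Psmb10* to *Psmb7*. The other pairs hold counts of 0, so no log ratio could be tested. Shares over promoters were counted in RefSeq windows on GRCm38.p6.

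Depth was 22520404 to 27351766 counts per sample. Genes with few counts, such as *Psmb8* and *Tap1*, have wide errors. Alternatives were RLE scaling, DESeq2 1.42.0, other filters, only the groups compared, the replicate number as a block, Geltrex™ samples summed, each sample left out, and, chosen after seeing the data, library GC as a covariate and leaving out the 2 libraries of lowest GC. Named genes are the 10 genes, their constitutive counterparts, up to 4 called genes per list with the largest change on Geltrex™ against Control, *Irf1*, *Ciita*, *Psme1*, *Psme2*, interferon genes by counts, and the 10 genes most like the set. One gene that the rule also names is not reported here. The genes and lists were chosen with earlier results of these data known.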

Additional observations from a re-analysis of the deposited data

How the results depend on the processing

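Of the 10 genes, 3 were called in fibronectin versus Control. The count was 1 with the Geltrex™ samples summed, 1 with library GC as a covariate, 1 without the 2 libraries of lowest GC, 0 at 2-fold or more, and 1 to 3 with a sample left out. The 4 called in fibronectin versus Collagen I became 2, 2, 2 and 0 under the same settings, and 2 to 5 with a sample left out. The 8 called in Geltrex™ versus Control became 5 of 7 tested with at least 10 counts required in every sample, 4 with the Geltrex™ samples summed, 2 at 2-fold or more, and 7 to 8 with a sample left out. The 6 called in Geltrex™ versus Collagen I became 3 with the Geltrex™ samples summed, 2 at 2-fold or more, and 5 to 7 with a sample left out. The 8 called in Geltrex™ versus fibronectin became 6 with the Geltrex™ samples summed, 3 at 2-fold or more and 7 to 9 with a sample left out. Collagen I versus Control stayed at 0 throughout. *Psmb8*, tested only through the Geltrex™ samples, is in the main counts of 8, 6 and 8. With library GC as a covariate, calls over all genes went from 4618 to 3600 in fibronectin versus Control. Against Collagen I they went from 6523 to 5218. With at least 10 counts in every sample, Geltrex™ versus Control had 4386 of 12486 genes called, against 4786 of 14499. With the Geltrex™ samples summed, fewer of all genes were called in each Geltrex™ comparison. The stricter filter tests fewer genes, the 2-fold rule asks for larger changes and the summed group has fewer samples. The cause of the other changes was not tested. No fold change of a called gene changed sign under any alternative.

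Under a replicate block, the counts were 3, 4, 7, 6, 9 and 0 in the same order. There *Psmb10* in Geltrex™ versus Control was no longer called (adjusted p = 0.059) and *B2m* in Geltrex™ versus fibronectin was (adjusted p = 0.0496). The labels do not say that a number marks a shared batch. The deviations of same-numbered samples correlated at over 0.1 in every pair for none of the 6 comparisons. Fibronectin and Collagen I came nearest (0.0473, 0.169 and 0.225), and there each of the 6 samples correlated best with its own number. *Psmb9* had too few counts to pass the filter and was not tested.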

Other observations

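Per length, *H2-D1* exceeded *H2-K1* by 4.1 ± 0.336 times (SD, n = 3) in Control, 5.62 ± 0.402 times on Collagen I, 5.3 ± 0.945 times on fibronectin and 3.93 ± 0.204 times on Geltrex™. This ratio was not tested, and its size depends on the exon lengths used.

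The genes were not equally alike over the 12 samples. Pearson's r of log2 CPM was 0.96 between *Tapbp* and *Psmb10* and 0.91 between *H2-D1* and *Tap2*, while that of *B2m* with *Tapbp* was 0.07 and with *Psmb10* 0.15. These values are a description of 4 groups of 3 samples that share libraries and base composition. *Tapbp* and *Psmb10* were lowest on fibronectin, where *B2m* stood at 417 ± 66.3 CPM beside 385 ± 80.7 in Control (SD, n = 3).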
